A study of Homo sapiens with 6 samples.

Results

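The Krüppel-like factors *KLF2*, *KLF3*, *KLF4*, *KLF5*, *KLF6*, *KLF7*, *KLF9*, *KLF10* and *KLF11* were examined in MDA-MB-231 breast cancer cells that overexpressed *circAAGAB*. They were taken by gene symbol from the annotation of the array. Of the 10 factors listed, 9 had a named probe set, 1 each, and *KLF13* was left out because no probe set carried its symbol. They stand among 17687 named genes and 21448 probe sets. MDA-MB-231 is an established line of triple-negative, mesenchymal breast cancer. In 3 samples the cells received a plasmid, pCIRC2T7-*circAAGAB*, that expresses a circle made of exons of *AAGAB*, and in 3 the empty control plasmid. Both groups were transfected with TransIT-X2, and RNA was taken 24 h later and hybridized to Clariom S arrays, 1 array for each sample. The methods speak of independent experiments for quantitative data in general, and no source says so of the arrays, so the p-values may measure technical spread only. Each value is a mean over all cells of a dish, in which a change in every cell and a larger change in the transfected cells cannot be told apart.

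Krüppel-like factors are transcription factors that bind GC-rich and CACCC elements through zinc fingers at their carboxyl end. Their amino-terminal parts differ, and by these parts some members mainly activate transcription while others recruit the corepressors CtBP or Sin3A. Several are induced quickly by serum, growth factors, stress or TGF-beta. In breast epithelium *KLF4* and *KLF5* are best known for roles in differentiation and proliferation, and *KLF10* as a gene induced early by TGF-beta.

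All values are log2 signals after robust multichip averaging, and each difference is *circAAGAB* overexpression minus empty vector. The host gene *AAGAB*, whose exons the plasmid carries, was between 7.56 and 7.73 on the empty vector arrays and between 10.97 and 11.75 on the *circAAGAB* arrays. It was the only probe set with an adjusted p under 0.05 (0.00466% of all, limma with p-values adjusted by Benjamini and Hochberg's method). Olfactory receptor genes, which are silent in most tissues, gave a gauge of background, 4.65, under which 95% of 349 such genes had their mean. All 9 Krüppel-like factors lay above it, with means from 5.66 to 9.21, while 31.5% of all probe sets had a mean below it. The 6 markers of this cell line, vimentin and *AXL* among them, were also above it. Of 5 endothelial and 4 measured blood cell markers, types in which *KLF2* and *KLF4* are well known, 2 and 1 were above it. Above it were the endothelial *VWF* (mean 6.21) and *CDH5* (5.11) and the blood cell marker *CD14* (5.93), and below it *PECAM1*, *KDR*, *TEK*, *PTPRC*, *CD3E* and *HBB*. *KLF9* (mean 5.66) lay below *VWF* and *CD14*, and *KLF7* (6.13) below *VWF*, so a mean above the gauge does not by itself show expression. Of 6 luminal breast and 4 fibroblast markers 2 each were above the gauge. *AXL* (-0.33, unadjusted p 0.0425) and the fibroblast marker *PDGFRA* (0.40, unadjusted p 0.0426) were the markers with an unadjusted p under 0.05 by limma, and their part in the values below was not tested.

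*KLF10* and *KLF4* were the factors that differed between the groups by more than the spread of the arrays. *KLF10*, also called TGF-beta-inducible early gene 1, encodes a repressor that binds Sin3A. Its signal was 8.48, 8.53 and 8.57 on the empty vector arrays of replicates 1, 2 and 3. With *circAAGAB* it was 9.06, 9.06 and 9.10. The groups did not overlap, and the gap between them was several times the distance between arrays of 1 group. The means were 8.53 ± 0.04 (SD, n = 3) and 9.07 ± 0.02 (SD, n = 3). The log2 difference was 0.54 (standard error 0.13), or 1.46-fold, with a 95% confidence interval of 1.18- to 1.80-fold. The unadjusted p from limma was 0.00321, rank 16 among all probe sets, and the adjusted p was 1.00, so *KLF10* did not pass the test over all probe sets. Within replicate numbers the difference was 0.58, 0.53 and 0.53, nearly the same in each pair.

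*KLF4* encodes a factor of epithelial differentiation that is also used to reprogram cells to pluripotency. It measured 6.79, 6.92 and 6.78 with the empty vector and 7.26, 7.21 and 7.14 with *circAAGAB*. Again every *circAAGAB* array was above every empty vector array. The means were 6.83 ± 0.08 (SD, n = 3) and 7.21 ± 0.06 (SD, n = 3). The log2 difference of 0.38 (standard error 0.14) was a 1.30-fold change with a 95% confidence interval of 1.04 to 1.61. By limma the unadjusted p was 0.0247 and the adjusted p 1.00. The within-number differences were 0.48, 0.29 and 0.36. The unadjusted p of *KLF4* was above 0.05 when single arrays were left out, at 0.0642, 0.0507 and 0.0843 without empty vector replicates 1, 2 and 3 and 0.0547 without *circAAGAB* replicate 2. That of *KLF10* stayed under 0.05 without any 1 array, between 0.00386 and 0.0178.

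Of the 9 factors, 2 were thus higher at an unadjusted p under 0.05, where 1.19% of all probe sets were, and 0 were lower, where 0.988% were. The same 2 were higher without overlap of the arrays, where 3.87% of all probe sets were, and 0 lower, where 4.04% were. With so few members these counts describe the 2 genes and not the family. No factor had an adjusted p under 0.05 by limma or by any alternative, the methods' test included. The median difference of the 9 was 0.0765, with 6 higher and 3 lower, beside -0.00165 over all probe sets.

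**Figure D1:**
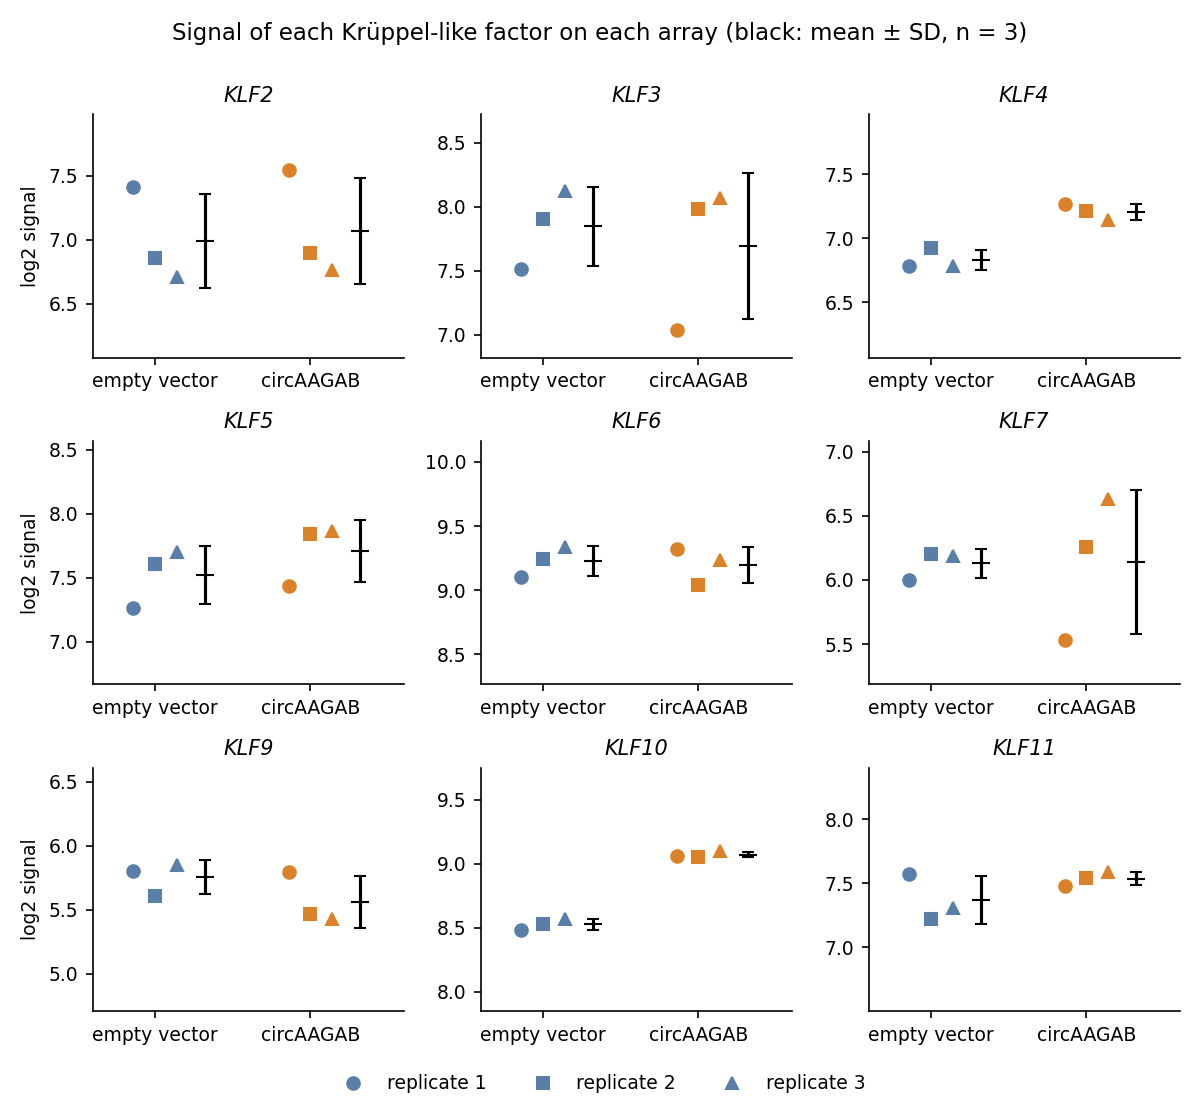
Log2 signal of the 9 Krüppel-like factors on each array. Points are arrays (shape gives the replicate number, blue the empty vector and orange *circAAGAB*), black marks the mean and SD (n = 3), and each panel spans the same range of log2 signal. The groups part without overlap for *KLF4* and *KLF10*, while *KLF2*, *KLF3*, *KLF5* and *KLF7* differ more between replicate 1 and the others than between the groups.

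Promoters were searched because *KLF4* and *KLF10* were both higher with *circAAGAB* and genes of this kind are often driven by CREB, AP-1, serum response factor and EGR1. RefSeq promoters (GRCh38.p14, 250 bases before to 50 after a gene's start) were at hand for 8 of the 10 listed factors, 13 starts in all, and *KLF3* and *KLF10* had none. The motifs, on both strands, were the cAMP response element TGACGTCA and its half-site TGACG, which the full element contains, the AP-1 site TGANTCA, the EGR sites GCGTGGGCG and GCGGGGGCG, the GC box GGGCGG, which overlaps the second EGR site, CACCC, and the CArG box of serum response factor. The *KLF4* promoter is shown because *KLF4* differed between the groups, and that of *KLF11* because it alone of these 8 held the full cAMP response element. Capitals mark TGACG on either strand and the full element. *KLF4* lies at chr9:107489720-107490019 on the minus strand and this start of *KLF11* at chr2:10043971-10044270 on the plus strand.
KLF4: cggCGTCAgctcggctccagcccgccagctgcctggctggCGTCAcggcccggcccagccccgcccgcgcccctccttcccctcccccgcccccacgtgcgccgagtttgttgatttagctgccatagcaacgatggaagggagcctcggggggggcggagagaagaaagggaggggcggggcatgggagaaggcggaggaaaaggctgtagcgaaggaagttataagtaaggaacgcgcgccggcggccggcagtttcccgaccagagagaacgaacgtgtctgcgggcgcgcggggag
KLF11: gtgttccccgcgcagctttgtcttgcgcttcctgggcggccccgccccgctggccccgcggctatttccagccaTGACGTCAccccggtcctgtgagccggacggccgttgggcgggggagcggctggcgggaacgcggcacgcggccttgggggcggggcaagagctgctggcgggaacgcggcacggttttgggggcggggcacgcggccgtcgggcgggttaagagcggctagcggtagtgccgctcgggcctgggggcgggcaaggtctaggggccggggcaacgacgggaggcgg

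*KLF4* held 2 half-sites, 247 and 210 bases before the start, and no full element, and 4 GC boxes. In *KLF11* the full element stood 176 bases before the start. A full element was found in 1.85% of all 35116 promoters and a half-site in 24.6%. The half-site was also present at *KLF5* and *KLF13*. The EGR site GCGGGGGCG was found at *KLF2* and *KLF6* (5.07% of all promoters). Only *KLF7* held a CArG box (1.29%), and none of the 13 starts held TGANTCA (7.71%) or GCGTGGGCG (0.795%). GC boxes, which Sp and Krüppel-like factors bind themselves, stood at 8 of the 13 starts, beside 45.0% of all promoters. CACCC stood at 7 of the 13, beside 59.9% of all. A match is a stretch of letters, and binding was not measured.

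*KLF2*, *KLF5*, *KLF6* and *KLF7* encode factors that mainly activate transcription. *KLF2*, which keeps endothelial cells and lymphocytes quiescent, was at 7.41, 6.86 and 6.71 with the empty vector and 7.54, 6.90 and 6.77 with *circAAGAB*. Both arrays of replicate 1 were high and the groups overlapped. The difference was 0.08 (standard error 0.26), with a 95% interval of -0.52 to 0.68. *KLF5*, which promotes proliferation of epithelial cells, was at 7.26, 7.60 and 7.70 against 7.43, 7.84 and 7.86. It was higher in each pair, by 0.17, 0.24 and 0.16, although replicate 1 was low in both groups and the groups overlapped. Over all arrays the difference was 0.19 (standard error 0.19), with an unadjusted p of 0.342. With the replicate number as a block the standard error fell to 0.11 and this p to 0.131. *KLF6*, described as a tumor suppressor, was at 9.11, 9.24 and 9.34 against 9.32, 9.04 and 9.23, with the arrays of both groups mixed. Its difference was -0.03, and the interval of 0.770- to 1.24-fold held no change as large as 1.5-fold. *KLF7*, best known for the growth of axons, was at 6.0, 6.20 and 6.19 against 5.53, 6.26 and 6.63. Its *circAAGAB* arrays were spread on both sides of the controls (SD 0.56 against 0.11), and the difference of 0.01 changed sign with the scaling, to -0.00726 after quantile normalization.

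*KLF3*, *KLF9* and *KLF11* encode factors that mainly repress. *KLF3* recruits CtBP and is best studied in red blood cells and fat. Its signal was 7.51, 7.90 and 8.13 with the empty vector and 7.04, 7.98 and 8.07 with *circAAGAB*. Replicate 1 was the lowest array of either group, and the difference of -0.15 (standard error 0.29) turned to 0.18 without *circAAGAB* replicate 1. *KLF9*, a Sin3A-binding factor induced by thyroid hormone and glucocorticoids, was at 5.81, 5.60 and 5.85 against 5.79, 5.47 and 5.43. It was lower in each pair, by margins from almost nothing in replicate 1 to a difference of -0.42 in replicate 3. The groups still overlapped, and the difference was -0.19 (standard error 0.16) with an unadjusted p of 0.273. *KLF11*, a close relative of *KLF10* that also binds Sin3A, was at 7.58, 7.22 and 7.31 against 7.48, 7.54 and 7.58. In replicates 2 and 3 it was 0.32 and 0.28 higher, whereas in replicate 1 the difference was -0.09. Over all arrays it came to 0.17 (standard error 0.15), with an unadjusted p of 0.302. The 95% intervals of *KLF9* (0.675- to 1.14-fold) and *KLF11* (0.881- to 1.43-fold) also held no change as large as 1.5-fold. Without a block those of *KLF2*, *KLF3*, *KLF5* and *KLF7* were wider and did. With the replicate number as a block they narrowed and no longer held such a change. In log2 they were then -0.19 to 0.34 (*KLF2*), -0.50 to 0.20 (*KLF3*), -0.08 to 0.45 (*KLF5*) and -0.45 to 0.47 (*KLF7*). Whether *KLF10* differed more than *KLF11* or *KLF4* was not tested.

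**Figure D2:**
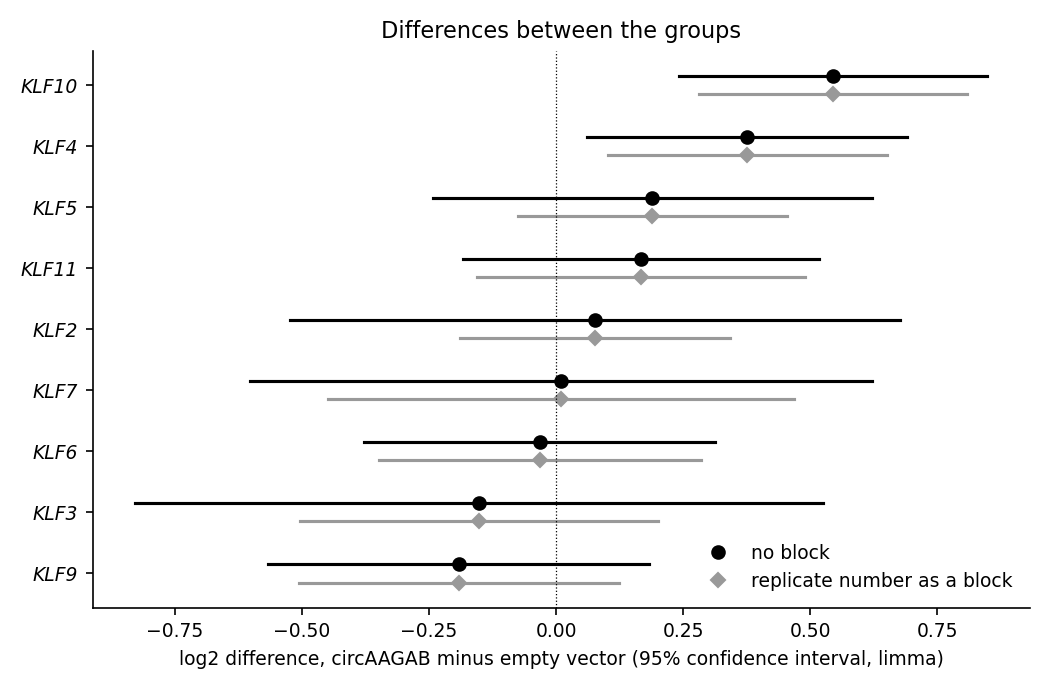
Log2 difference of each factor, *circAAGAB* minus empty vector, with its 95% confidence interval from limma, without a block (black circles) and with the replicate number as a block (gray diamonds). The intervals of *KLF10* (0.24 to 0.85) and *KLF4* (0.06 to 0.69) lie above 0 without the block, and those of the other 7 factors span 0.

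Several factors differed more by the replicate number of the array than by the plasmid. *KLF2* was 0.67 higher on the arrays of replicate 1 than on those of replicates 2 and 3, and 98.2% of its variance among the 6 arrays lay between replicate numbers. For *KLF3*, *KLF5* and *KLF7* the same difference was -0.74, -0.40 and -0.55, and the shares were 86.7%, 79.8% and 67.6%. So 4 of the 9 factors had over 50% of their variance on the replicate number, against 61.1% of all probe sets. The replicate number has 3 levels and the group 2, so its share tends to be larger even where neither matters. *KLF10* and *KLF4* hardly differed between replicate numbers, by -0.04 and 0.01. The group held 99.0% of the variance of *KLF10* and 91.4% of that of *KLF4*, and it held over 50% for 8.75% of all probe sets. For *KLF6*, 68.2% lay on neither.

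Because arrays of a number deviated together, the groups were also set side by side within each number. *KLF2*, *KLF4*, *KLF5* and *KLF10* were higher with *circAAGAB* in all 3 numbers, which held for 15.4% of all probe sets, and *KLF9* was lower in all 3, as were 14.8%. The other 4 factors went both ways. With the number as a block *KLF10* and *KLF4* were still the 2 factors with an unadjusted p under 0.05, at 0.00236 and 0.0154, where 3.78% of all probe sets were higher and 3.02% lower at that threshold. Their adjusted p was 0.724 each by limma.

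**Figure D3:**
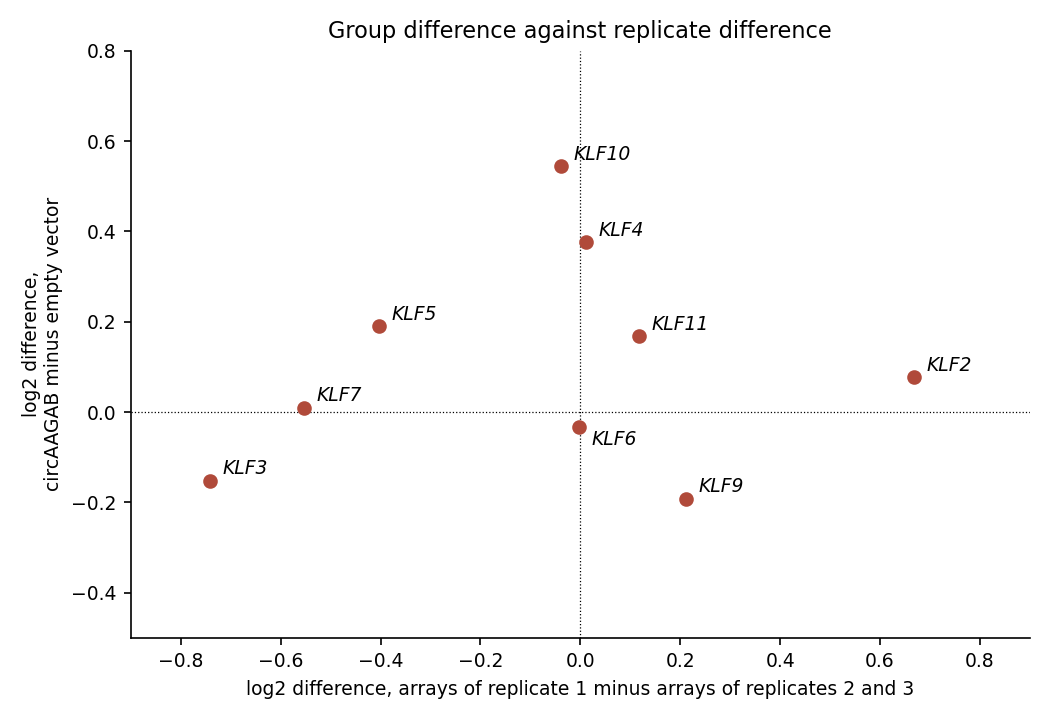
Each point is 1 Krüppel-like factor. The horizontal axis gives the log2 difference between the arrays of replicate 1 and those of replicates 2 and 3, and the vertical axis that between *circAAGAB* and empty vector. *KLF10* and *KLF4* lie near 0 across and highest up (0.54 and 0.38), and *KLF2* and *KLF3* lie farthest out to either side (0.67 and -0.74) with small differences between the groups.

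Relatives and partners of these factors were read from lists of textbook genes. Among 7 other measured Krüppel-like factors, 6 were lower and 1 higher with *circAAGAB*, with a median of -0.23, that of *KLF14*. Over all probe sets 10805 were lower and 10643 higher. The 6 lower ones had low signal. *KLF8* (mean 3.81) and *KLF14* (4.04) lay below the background gauge, and *KLF1*, *KLF12*, *KLF15* and *KLF17* had means from 5.09 to 5.29. *KLF16*, the 1 higher, had a mean of 7.45. At an unadjusted p under 0.05 by limma there were 0 of the 7. *KLF8*, a CtBP-binding repressor, had the smallest, 0.129, at -0.26. *KLF12*, another such repressor, was at 5.03, 5.44 and 5.64 against 4.30, 5.51 and 5.55, again lowest in replicate 1. The 9 related Sp factors, which bind the same GC boxes, had a median of -0.08, 7 lower and 2 higher. *SP7* (mean 2.97) lay below the gauge, and *SP4*, *SP5*, *SP8* and *SP9* had low means too, from 4.85 to 5.47 (*SP8*). *SP8*, known from limb development, was lower on every *circAAGAB* array (difference -0.31, unadjusted p 0.0820). With the replicate number as a block, *SP8* and the widely expressed *SP1* had an unadjusted p under 0.05 by limma, 0.0407 and 0.0493. Both were lower, as were 3.02% of all probe sets at that threshold.

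Of the 9 measured corepressors and coactivators, 6 were lower and 3 higher, with a median of -0.04. *SIN3A*, the corepressor of *KLF9*, *KLF10* and *KLF11*, had the smallest unadjusted p of them, 0.133, or 0.0326 with the block. Its difference was -0.32, from 6.99, 7.06 and 7.34 with the empty vector to 6.68, 6.62 and 7.14 with *circAAGAB*, and the groups overlapped. *HDAC1*, a histone deacetylase of the Sin3A complex, was lower without overlap (-0.22, unadjusted p 0.168). The 10 upstream regulators were split 5 and 5 with a median of 0.00633 and differences no larger than -0.10 and 0.08. *SRF*, the serum response factor, had the smallest unadjusted p there, 0.566, at a difference of 0.08. *MAPK7* and the *MEF2* genes, the ERK5 pathway that induces *KLF2* and *KLF4*, were in this list.

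Genes described as targets of Krüppel-like factors had a median of -0.01, 8 of 17 measured higher and 9 lower, none at an unadjusted p under 0.05 by limma. The list was not split into genes that a factor activates and genes that it represses, so its median does not measure a response of targets. Of the 17, 15 lay above the background gauge, and *CDH1* and *NOS3* lay below it. Unadjusted p-values here are from limma. The smallest unadjusted p was that of the chemokine *CCL5*, a target of *KLF13*, 0.0955 at a difference of 0.32, and 0.0279 with the block. *PDGFA*, a growth factor, was higher without overlap (0.22, unadjusted p 0.152). In the TGF-beta response, with which *KLF10* and *KLF11* are associated, 13 genes were measured, of which 9 lay above and 4 below their control mean (median 0.04). This list also held the ligand *TGFB1* and the receptors *TGFBR1* and *TGFBR2*, both receptors lower. *SMAD7*, *TGFB1* and *TGFBR1* were counted among the targets above as well. *SKIL*, a feedback inhibitor of SMAD signaling, was 0.42 higher, at 6.42, 6.67 and 6.94 against 6.66, 7.17 and 7.46. It was higher in each pair, but its groups overlapped, and its unadjusted p was 0.111 or 0.0123 with the block. *TGFBR2*, a receptor of TGF-beta, was lower without overlap (-0.19, unadjusted p 0.219). *SMAD7*, an early target of TGF-beta that *KLF10* represses, had a difference of -0.08. In each of these 6 lists, 0 genes had an adjusted p under 0.05 by limma with or without the block, and 0 had an unadjusted p under 0.05 without it. With the block no list had more than 2 genes at an unadjusted p under 0.05, where 3.78% of all probe sets were higher and 3.02% lower. No list had more than 1 gene without overlap of the arrays, where 3.87% were higher and 4.04% lower. These single genes do not describe their lists.

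**Figure D4:**
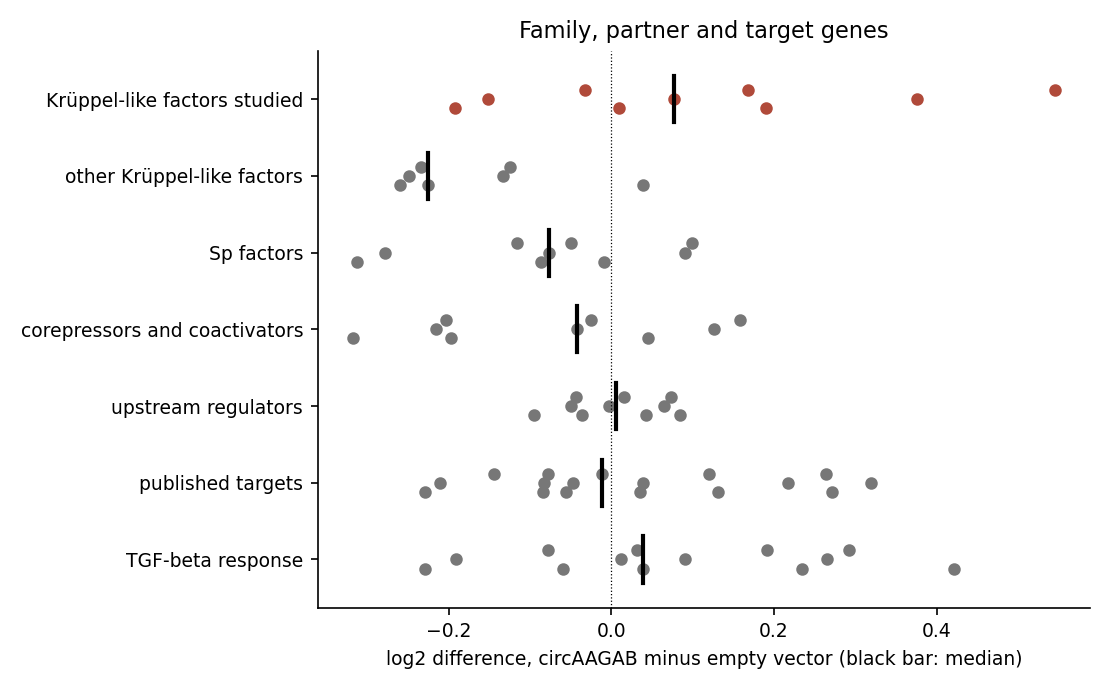
Log2 difference between *circAAGAB* and empty vector for each measured gene of 7 lists, the Krüppel-like factors studied in red and related genes in gray, with the median of each list as a black bar. The medians lie between -0.23 (other Krüppel-like factors) and 0.08 (the factors studied), and *KLF10* at 0.54 is the point farthest to the right.

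Among 12450 genes above the background gauge outside the family, those whose signal over the 6 arrays was most like that of *KLF10* were *TSC22D2* (Pearson's r 0.994), *SPANXA2* (0.991), *DUSP10* (0.984), *AAGAB* itself (0.983) and *PON3* (0.981). The arrays fell into 2 groups for *KLF10*, so that a high r means mainly a like difference between the groups. That difference was 0.26 for *TSC22D2*, a gene of the TSC22 family of leucine zipper proteins, and 0.36 for *DUSP10*, a phosphatase of p38 MAPK and JNK. *SPANXA2* has near-identical copies, so its value is uncertain.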

How the data were processed

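MDA-MB-231 cells transfected with the *circAAGAB* plasmid or the empty vector were measured on 6 Clariom S arrays, 3 for each group, grouped by the genotype in the labels. The authors made and labeled cDNA with WT Plus and Terminal Labeling kits, normalized the arrays by robust multichip averaging (RMA) and deposited 1 log2 value per probe set and array. The version of that software is not given by the labels or the methods. RMA makes the arrays alike in distribution, so an overall shift between groups would not show. Arrays give no read depth, and their number limits the precision.

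Probe sets were named through the platform annotation with symbols updated from the gene table of GRCh38.p14 (17709 probe sets had 1 symbol, 3739 were unnamed). The one of highest mean stood for a gene. Groups were compared over all probe sets by the functions lmFit and eBayes of limma 3.58.1, run under R 4.3.3 (two-sided, Benjamini-Hochberg adjustment, no filter, no covariate). The procedure was tested on simulated data. Their arrays were drawn independently, without a shared effect of the replicate number, so that test does not cover arrays that deviate together. The unpaired Student's test that the methods name (the methods' test) was an alternative. Arrays of replicate numbers 1, 2 and 3 correlated at 0.603, 0.189 and 0.549 in their deviations from the group means, over the minimum of 0.1, so the labels' numbers were taken to pair the arrays, although empty vector replicate 2 correlated more with *circAAGAB* replicate 3 (0.247). Named genes were all members, the list genes with an unadjusted p under 0.05 or else the smallest p, the 5 genes most like the member of smallest p, and *AAGAB*. *KLF12*, *SMAD7*, *SP1*, *HDAC1*, *PDGFA*, *TGFBR2*, *MEF2C*, *WWP1* and the cell type markers were added with values known. The members and lists were chosen with earlier results of these data known. Variance shares are sums of squares of group, replicate number and rest, with 1, 2 and 2 degrees of freedom.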

Additional observations from a re-analysis of the deposited data

How the results depend on the processing

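Over the 13 alternatives, *KLF10* kept its direction and an unadjusted p under 0.05 in all, with differences from 0.52 to 0.56. *KLF4* kept its direction in all 13 (0.33 to 0.42) and was under 0.05 in 8, with 0.0502 by limma when the pair of replicate 1 was dropped. Only quantile normalization could have turned either direction. The groups did not overlap for these 2 genes, so leaving arrays out could not reverse them, and the remaining alternatives keep the main difference. With 1 probe set for each gene, the mean of a gene's probe sets nearly repeats the main fit. The kept directions therefore add little. The replicate block changed neither call, and 2 factors were higher at an unadjusted p under 0.05 with it as without. With single arrays left out, 1 to 2 factors were higher at that threshold, 2 to 5 had arrays without overlap (12.66% to 29.71% of all probe sets did), and the median of the members lay between 0.0377 and 0.194. The 5 came without *circAAGAB* replicate 1, where that share was also highest. When the pair of replicate 1 was dropped, these values were 1, 7 (39.4% of all probe sets) and 0.200, and *KLF3* had a difference of 0.00940. Signs also changed with single arrays left out for *KLF2* (-0.16 to 0.29), *KLF3* (-0.34 to 0.18), *KLF6* (-0.0942 to 0.0446) and *KLF7* (-0.23 to 0.31), and for *KLF7* with quantile normalization (-0.00726). The causes were not tested. By the methods' test *AAGAB* had the same difference of 3.61 but an adjusted p of 0.471. *AAGAB* had differences of 3.38 to 3.76 with single arrays left out. In 0 of the alternatives did a Krüppel-like factor reach an adjusted p under 0.05.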
